A study of Homo sapiens with 4 samples.

Results

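The genes described here are 37 members of the lysosome and autophagy machinery, out of 19733 named genes on the array. They were chosen by name for their place in these pathways, with earlier results of these data known. They comprised 15 lysosomal hydrolases, 7 membrane, lipid transport and activator proteins, 3 subunits or partners of the vacuolar proton pump (V-ATPase), the transcription factors TFEB and TFE3, and 10 proteins of the autophagy machinery. RNA of Hs746T, a gastric carcinoma cell line with a MET exon-skipping mutation and MET amplification, was hybridised to 4 single-colour Agilent expression arrays, 1 per condition. The conditions were DMSO, the small-molecule MET kinase inhibitor PHA665752, sc siRNA (the control siRNA) and MET siRNA, with the siRNA cells taken 48 h after transfection. How much PHA665752 was used for the array, and for how long, is not given in the sources used here; 1 cell line, 1 MET siRNA and 1 array per condition limit what each ratio stands for. There was therefore no replicate error and no test, and fewer cells of a type and less RNA per cell cannot be told apart in bulk RNA.

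Lysosomes are acidic organelles in which hydrolases break down proteins, lipids and sugars delivered by endocytosis or by autophagy. Autophagy encloses cytoplasm in a double membrane, the autophagosome, whose growth depends on ULK1, BECN1, WIPI1, the ATG conjugation proteins and lipid-bound LC3 and GABARAP proteins, and which then fuses with the lysosome. TFEB and TFE3 bind an E-box, CACGTG, within the CLEAR element of many lysosomal promoters, and their entry into the nucleus is held back by mTORC1, a kinase that growth factor receptors can activate.

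The sequences below show, with a single match per gene, where this E-box lies in member promoters. Because the CLEAR element belongs to many lysosomal promoters, its share among members chosen as lysosomal is no finding independent of that choice. RefSeq promoters of GRCh38.p14, from 250 bases before to 50 bases after the start, were listed for 29 of the 37 members. CTSB, CTSK, CTSS, HEXA, LAMP2, PSAP, ATP6V1H and UVRAG had no entry. CACGTG, which reads the same on both strands, was found in 8 members, namely CTSA, CTSD, CTSF, NEU1, LAMP1, MCOLN1, CLN3 and ATP6V0D1. The capitals mark CACGTG, with 10 bases on either side, read 5′ to 3′ on the strand of the gene.
CTSA, chr20:45891300-45891325, plus strand: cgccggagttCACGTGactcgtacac
CTSD, chr11:1763959-1763984, minus strand: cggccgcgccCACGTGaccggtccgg
CTSF, chr11:66568714-66568739, minus strand: atataacaagCACGTGatagaggtca
NEU1, chr6:31862932-31862957, minus strand: gctgcgtgatCACGTGggaggagatg
LAMP1, chr13:113297201-113297226, plus strand: cccgcgggatCACGTGacgcccgggc
MCOLN1, chr19:7522573-7522598, plus strand: cagaggcggtCACGTGaggggctctg
CLN3, chr16:28492089-28492114, minus strand: aacctctgagCACGTGatgggggaac
ATP6V0D1, chr16:67481201-67481226, minus strand: cccttatggtCACGTGaggcgcttgc

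The first base of the matches shown lay between 25 bases (CTSA) and 126 bases (NEU1) before the start. CTSA, CTSF, LAMP1, MCOLN1 and CLN3 held further matches that are not shown. In LAMP1 these reached from 192 bases to 1 base before the start. A longer form, TCACGTG or its complement CACGTGA, which contains the shorter motif, was present in all 8. All 8 members were lysosomal, so that CACGTG was found in 8 of 18 lysosomal members with a promoter (44.4%), in 0 of 9 members of the autophagy machinery and in neither TFEB nor TFE3. Of all 27305 genes in the table, 8.77% held CACGTG and 4.49% the longer form. Among the 11724 array genes with a promoter and an inhibitor ratio, the share with CACGTG was 11.8%. These matches describe the letters in a window and were not measured as binding sites.

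Each value below is a processed signal, the linear intensity of a probe after background subtraction, and each ratio is a log2 ratio after every array was scaled to its own 75th percentile. A log2 ratio of 1 is a 2-fold difference, and only members past that size are said to have risen or fallen. The 75th percentile was 990.1 on the DMSO array and between 831 and 858 on the others, so a ratio is slightly higher than the quotient of 2 signals against DMSO. The 37 members had 49 probes, of which 45 were well above background on all 4 arrays and the other 4 lacked a value on 1 array because their spot carried an outlier mark. Probes spotted 10 times gave a spot noise of 0.078 for a log2 ratio, which does not cover differences between cultures. MET, the targeted gene, had a signal of 221451 with DMSO, 100492 with PHA665752 and, in the siRNA pair, 190010.0 with sc siRNA against 77853.5 with MET siRNA. Its log2 ratio was -0.93 with the inhibitor and -1.33 with MET siRNA. Of the epithelial markers, 7 of 10 were well above background on every array, GRHL2 and ELF3 were on none, and CDH1 had a signal of only 10.4 to 33.0. Among gastric markers, TFF1, TFF2 and MUC6 were well above background on every array at signals between 41.7 and 163, whereas GKN1 was on none. The mesenchymal markers CDH2, ZEB1, FN1 and SPARC were well above background on every array. VIM, the brightest of the 5 mesenchymal markers, had no value on either siRNA array. In the inhibitor pair FN1 (1061 and 3564) and SPARC (3024 and 6559) rose, at 1.96 and 1.33. ZEB1 (2790 and 1449) went the other way, at -0.73, short of 2-fold. VIM (291840 and 276821) and CDH2 (4099 and 4223) also stayed under 2-fold. Thus 2 of 5 mesenchymal markers rose and 0 fell. The part of these markers in the lysosomal ratios was not tested.

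In the inhibitor pair, 9 of 25 lysosomal members rose and 19 had ratios above 0, beside 3 of 10 members of the autophagy machinery that rose. Cathepsins B, F, H, D, A and K, HEXA, the cholesterol transporter NPC1 and the saposin precursor PSAP were more than 2-fold higher with PHA665752, together with the autophagy genes GABARAPL1, SQSTM1 and WIPI1. In all, 12 of 37 members rose and 0 fell, against 13.1% of all named genes with a ratio that rose and 7.95% that fell. Ratios were above 0 for 24 members and below 0 for 13, where 55% of all genes were above 0, but 7 of these 13 had a further probe above 0, and with probes of a gene combined by their median 29 members were above 0. The median log2 ratio of the members was 0.55, beside 0.076 for all named genes. It was 0.30 beside -0.17 under the 50th percentile, and 0.20 beside 0.055 with the sc siRNA array as control.

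**Figure D1:**
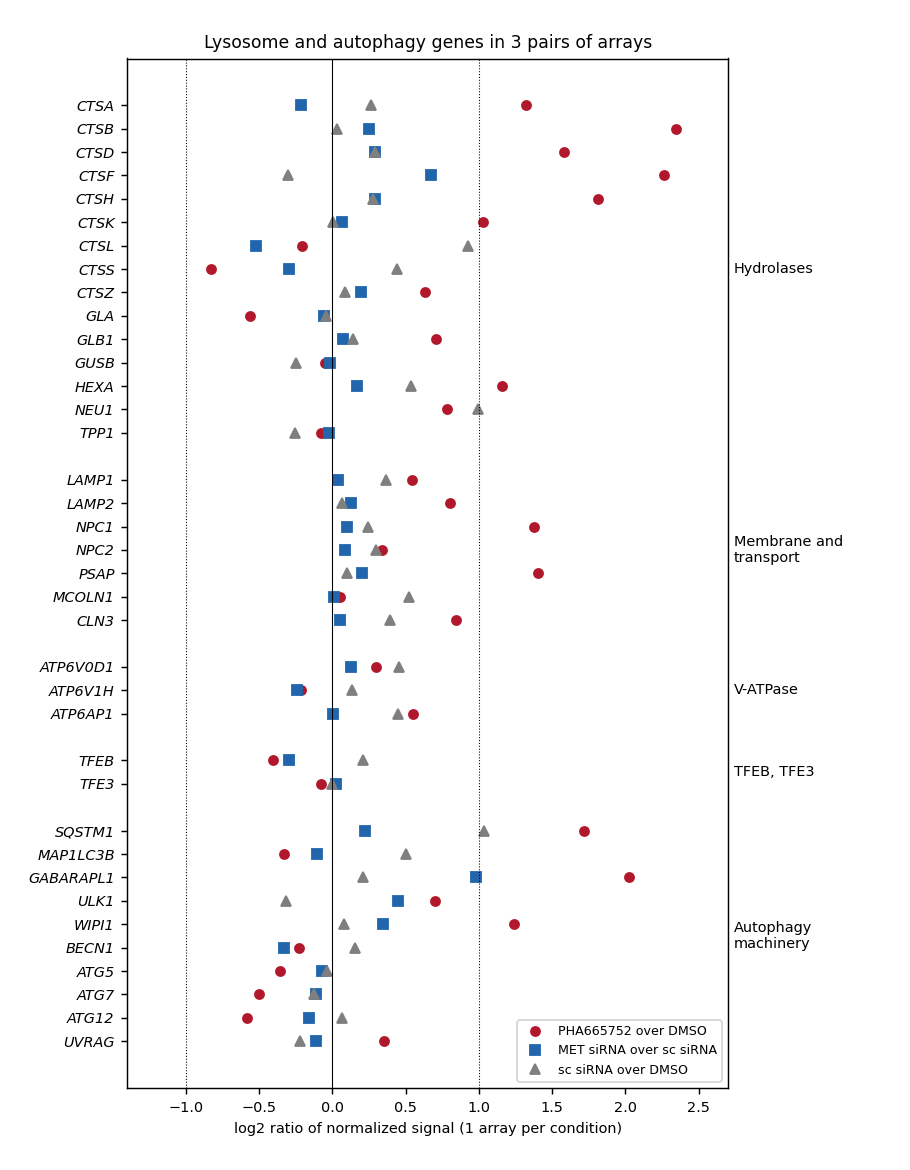
Log2 ratio of normalized signal (horizontal axis) for each member gene (vertical axis), with circles for PHA665752 over DMSO, squares for MET siRNA over sc siRNA and triangles for sc siRNA over DMSO, from 1 array per condition; dotted lines mark 2-fold. The circles of 12 members lie to the right of the 2-fold line and none lies beyond it on the left, while every square lies between the dotted lines.

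The 2 largest inhibitor ratios were those of hydrolases. CTSB encodes a lysosomal cysteine protease, and its signal was 4068 with DMSO and 17779 with PHA665752, against 3483 with sc siRNA and 4281 with MET siRNA. The inhibitor array stood apart from the other 3, with a log2 ratio of 2.34 (5.07-fold), which ranked 223 from the top of 14811 genes. CTSF, another cysteine protease, had signals of 6866 with DMSO, 28471 with PHA665752 and, in the siRNA pair, 4672 with sc siRNA against 7683 with MET siRNA. Its log2 ratio was 2.27 (4.81-fold) in the inhibitor pair and 0.67 in the siRNA pair, so that the treated array was the higher one in both pairs. CTSH, an aminopeptidase of the same family, rose from 922 with DMSO to 2792 with PHA665752, a log2 ratio of 1.81, and measured 935 and 1179 on the sc siRNA and MET siRNA arrays. The aspartic protease CTSD had a signal of 3055 with DMSO, 7864 with PHA665752 and, in the siRNA pair, 3140.5 with sc siRNA against 3968 with MET siRNA. This corresponded to log2 ratios of 1.58 and 0.29 for the inhibitor and the siRNA.

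CTSA, the protective protein that stabilises beta-galactosidase and neuraminidase, had a signal of 5059 with DMSO and 10909 with PHA665752 on the probe used for the gene, a log2 ratio of 1.32. The same probe measured 5104 with sc siRNA and 4535 with MET siRNA, and its siRNA ratio of -0.22 was, on this scaling, the only one below 0 among the 12 members that rose with the inhibitor. A brighter CTSA probe carried an outlier mark on the PHA665752 array; with the mark ignored it gave a log2 ratio of 1.21. HEXA, the alpha subunit of beta-hexosaminidase, measured 2825 with DMSO, 5419.8 with PHA665752 and, in the siRNA pair, 3431 with sc siRNA against 3982 with MET siRNA, for an inhibitor ratio of 1.15 (0.91 when arrays were scaled to the 50th percentile). CTSK, a collagen-degrading cysteine protease, was the member nearest to the 2-fold line among those past it, with a log2 ratio of 1.03, and it was under 2-fold in 4 of 9 other settings (0.78 at the lowest). Its signals were low, at 369 with DMSO, 649 with PHA665752 and, in the siRNA pair, 310.1 with sc siRNA against 334 with MET siRNA.

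The other 8 hydrolases did not pass 2-fold with the inhibitor. The sialidase NEU1 (7085 with DMSO, 10483 with PHA665752), beta-galactosidase GLB1 (7786 and 10957) and the carboxypeptidase CTSZ (4278 and 5710.3) had log2 ratios of 0.78, 0.71 and 0.63. The beta-glucuronidase GUSB differed by -0.05 and the alpha-galactosidase GLA by -0.56. CTSS, a cysteine protease best known from antigen-presenting cells, had the lowest ratio of all members, -0.83, on signals of 206 with DMSO and 100.05 with PHA665752, and it was past 2-fold lower under the 50th percentile (-1.08) and under quantile normalization. CTSL, a further cysteine protease, measured 17731 with DMSO, 13248 with PHA665752 and, in the siRNA pair, 28207 with sc siRNA against 20295 with MET siRNA. Its ratio was -0.21 with the inhibitor and -0.52 with MET siRNA, the lowest siRNA ratio of the members. Cathepsins were thus found at both ends of the member list.

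**Figure D2:**
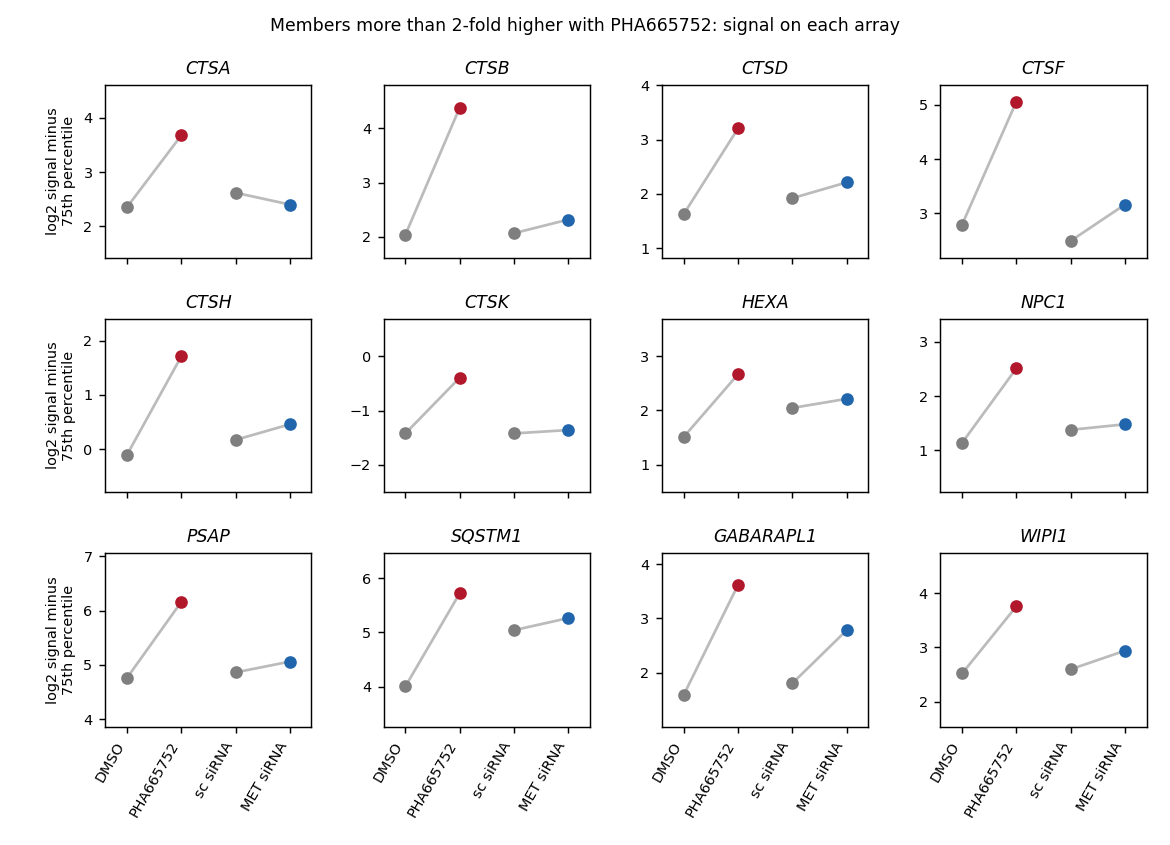
Scaled log2 signal, relative to each array's 75th percentile (vertical axis), on each of the 4 arrays (horizontal axis) for the 12 members more than 2-fold higher with PHA665752; grey points are controls, red is PHA665752 and blue is MET siRNA, and lines join the arrays of a pair. The PHA665752 point is the highest of the 4 in every panel, and the step from sc siRNA to MET siRNA is smaller in every panel, with GABARAPL1 (0.98) and CTSF (0.67) the largest and CTSA downward.

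All 7 membrane, lipid transport and activator proteins had ratios above 0 in each of the 3 pairs. Of all genes, 55% were above 0 with the inhibitor, 47% with MET siRNA and 48.5% in sc siRNA over DMSO. The last pair shares an array with each of the others. The siRNA ratios of MCOLN1 (0.0084), LAMP1 (0.038) and CLN3 (0.054) were under the spot noise of 0.078. MCOLN1, CLN3 and LAMP2 each crossed 0 in a pair under another scaling or background correction. Under scaling by the median of probes well above background, all 7 siRNA ratios were below 0. PSAP, the precursor of the saposins that present lipids to hydrolases, had a signal of 26811.5 with DMSO, 61023 with PHA665752 and, in the siRNA pair, 24129.7 with sc siRNA against 28618 with MET siRNA, a log2 ratio of 1.40 for the inhibitor and 0.20 for the siRNA. A second PSAP probe gave 1.51 with the inhibitor. NPC1, which exports cholesterol from the lysosome, measured 2178 with DMSO, 4862 with PHA665752 and, in the siRNA pair, 2158 with sc siRNA against 2392 with MET siRNA, for ratios of 1.37 and 0.10. Its partner NPC2 differed by 0.34, on signals of 62764 with DMSO and 68415.5 with PHA665752. CLN3, a lysosomal membrane protein mutated in a childhood neurodegenerative disease, had an inhibitor ratio of 0.84 (296 and 459). LAMP1, a major glycoprotein of the lysosomal membrane, had 0.54 on signals of 41750.4 and 52441. The calcium channel MCOLN1 was nearly level at 0.05 (131 and 117; -0.19 under the 50th percentile).

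LAMP2 encodes transcripts that differ in their last exon, and the array held a probe annotated to each of 3 of them. The probe for NM_001122606 (LAMP2C), which stood for the gene, measured 7856 with DMSO, 11809.8 with PHA665752 and, in the siRNA pair, 6907 with sc siRNA against 7778 with MET siRNA, and had an inhibitor ratio of 0.80. The probe for NM_013995 (LAMP2B) had 871 and 1165 with DMSO and PHA665752, a ratio of 0.63. The probe for NM_002294 (LAMP2A), the form that acts as receptor in chaperone-mediated autophagy, measured 169 with DMSO, 541 with PHA665752 and, in the siRNA pair, 126 with sc siRNA against 167 with MET siRNA. Its inhibitor ratio was 1.90, above that of the other probes by more than 1 on the log2 scale, and its siRNA ratio was 0.36 beside 0.12 for the LAMP2C probe. Which transcripts each probe detects beyond its annotation was not tested.

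The V-ATPase members, which acidify the lumen, remained under 2-fold in all pairs. With the inhibitor, ATP6V0D1 of the membrane domain had a log2 ratio of 0.30 (10968 and 11607), the accessory protein ATP6AP1 0.55 (10581 and 13349) and the regulatory subunit ATP6V1H -0.21 (1375 and 1023). TFEB measured 4516 with DMSO and 2941 with PHA665752, a ratio of -0.40, on its brightest probe. A second TFEB probe measured 559 with DMSO, 936 with PHA665752 and, in the siRNA pair, 437 with sc siRNA against 652 with MET siRNA, with ratios of 0.96 and 0.53. The TFEB probes thus went opposite ways in both treated pairs. For TFE3 the ratios of its 2 probes were -0.08 and 0.28 with the inhibitor. The array measures transcript levels, and where TFEB and TFE3 were in the cell was not measured.

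Within the autophagy machinery, 3 of 10 members rose. The ratio was below 0 for 5 by their brightest probe, of which 4 had a further probe above 0, and for 3 by the median over probes. GABARAPL1, an LC3-like protein of the autophagosome membrane, measured 2984 with DMSO, 10468 with PHA665752 and, in the siRNA pair, 2899 with sc siRNA against 5895 with MET siRNA. Both treated arrays were above both controls, with a log2 ratio of 2.02 for the inhibitor and 0.98 for the siRNA, the latter ranking 292 of 13810 genes and standing closest to 2-fold among the members (just past it under quantile normalization). A second probe of GABARAPL1, at signals of 302 with DMSO, 945 with PHA665752 and, in the siRNA pair, 259 with sc siRNA against 361 with MET siRNA, gave 1.86 and 0.43. SQSTM1 encodes p62, a receptor that carries ubiquitinated cargo into autophagosomes, and measured 15881 with DMSO, 44986 with PHA665752 and, in the siRNA pair, 27349 with sc siRNA against 32974 with MET siRNA. Its log2 ratio was 1.72 against DMSO, but the sc siRNA array was itself 1.04 above DMSO, and against sc siRNA the inhibitor ratio was 0.68. WIPI1, which binds phosphoinositides on the forming autophagosome, measured 5668 with DMSO and 11519.7 with PHA665752 (1.24, or 0.99 under the 50th percentile), and 5016 and 6570.3 on the siRNA arrays (0.34). The kinase ULK1, which starts autophagosome formation, had ratios of 0.70 with the inhibitor and 0.45 with the siRNA, on signals of 2233, 3122, 1501 and 2113 in the order DMSO, PHA665752, sc siRNA and MET siRNA. UVRAG, a partner of BECN1, had 0.35 and -0.11.

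The remaining core machinery did not pass 2-fold in either direction. BECN1, part of the lipid kinase complex of early autophagosomes, measured 4526 with DMSO and 3336 with PHA665752, a ratio of -0.23. MAP1LC3B had a ratio of -0.33, ATG5 -0.36, ATG7 -0.50 and ATG12 -0.58, all from their brightest probes. Further probes of these last 4 genes gave 0.44, 0.84, 0.22 and 0.29 in the same order, so their direction with the inhibitor depended on the probe. The second ATG12 probe was near background, at signals of 17.4 to 20.2, and the second ATG5 probe measured 287 with DMSO and 443 with PHA665752. No direction is therefore given for MAP1LC3B, ATG5, ATG7 and ATG12.

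**Figure D3:**
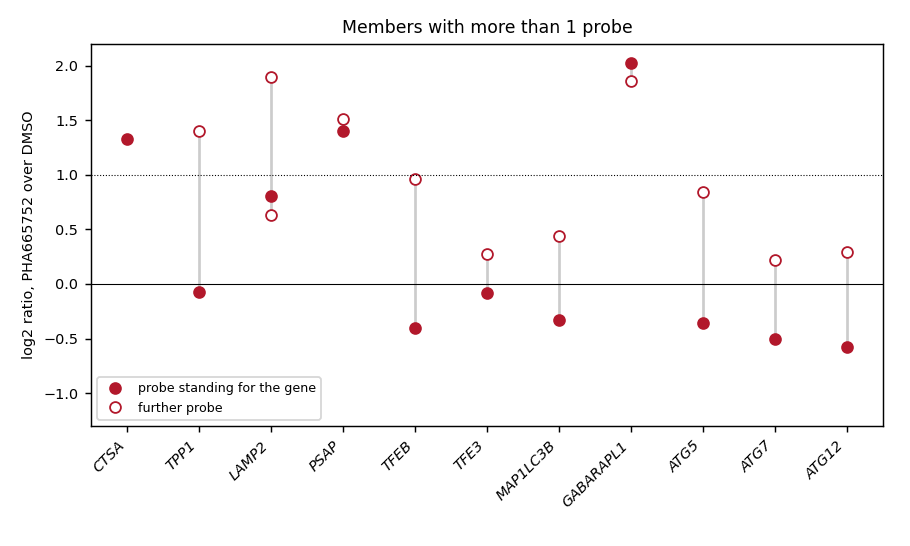
Log2 ratio of PHA665752 over DMSO (vertical axis) for each probe of the 11 members with more than 1 probe (horizontal axis); filled circles are the probe standing for the gene, open circles further probes, and the dotted line marks 2-fold. For TPP1, TFEB, TFE3, MAP1LC3B, ATG5, ATG7 and ATG12 the filled circle lies below 0 and the open circle above it, whereas the probes of PSAP and GABARAPL1 lie close together; CTSA has 1 probe with a ratio.

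Probes of 1 gene went opposite ways with the inhibitor in 7 of the 11 members with more than 1 probe, and in each of the 7 the brightest probe was the one below 0. Across 2975 genes with several probes, the brightest and dimmest differed in sign in 21.1%, and in 11.7% the brightest was below 0 with the dimmest above it. TPP1, a tripeptidyl peptidase of the lysosome, was the widest case. Its brighter probe measured 7246 with DMSO and 5927 with PHA665752 (-0.08), and its dimmer probe 1585 and 3617 (1.40). Probes differed by more than 1 on the log2 scale for TPP1, LAMP2, TFEB and ATG5, against 7.66% of genes with several probes. The cause was not tested.

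Set side by side, the 25 lysosomal members had a median log2 inhibitor ratio of 0.71, with 9 past 2-fold and 19 above 0, and the 10 autophagy members a median of 0.061, with 3 past 2-fold. The medians differed by 0.65, a difference that no scaling of whole arrays by a constant can alter. With the median over all probes of a gene in place of the brightest probe the difference was 0.41, and with the sc siRNA array as control 0.33. Within the lysosomal members the median was 0.78 for hydrolases, 0.80 for membrane and transport proteins and 0.30 for the V-ATPase. Lysosomal members with CACGTG in the promoter had a median of 0.81 (8 genes) and those without it 0.44 (10 genes), while among all array genes with a promoter the medians were 0.068 and 0.059. The order was not shared by every group, and the groups were small. Hydrolases had 1.45 with the motif (4 genes) and -0.05 without (7 genes). Membrane and transport proteins had 0.54 (3 genes) and 0.86 (2 genes), and the V-ATPase members 0.30 and 0.55 (1 gene each). Of the hydrolases without a promoter entry, CTSB, CTSK and HEXA rose and CTSS did not. TPP1, without the motif, entered at -0.08, and its other probe gave 1.40. Among the other pathway genes with a promoter, 25% held CACGTG. CTSF, CTSD and CTSA rose and held the motif. CTSH, NPC1, SQSTM1, GABARAPL1 and WIPI1 rose without it in this window, and MCOLN1 and ATP6V0D1 held it at ratios of 0.05 and 0.30.

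The members were mostly bright, and bright genes seldom rose with the inhibitor. Named genes well above background, with a value, on all 4 arrays were divided into 5 bins by mean signal. The brightest bin held 19 of the members and 4.21% of its 2615 genes rose. In that bin 7 members rose, and the median ratio was 0.63 for the members and -0.10 for all its genes. In the next bin 3 of 9 members rose, where 5.39% of all genes did. The dimmest bin, in which 23.0% of genes rose, held no member. Among binned genes the share that rose was thus highest where no member lay. The background share of 13.1% for the whole array also counts genes that were in no bin.

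MET siRNA left every member under 2-fold. Of the 36 members with a ratio, 0 rose and 0 fell, where 2.04% of all named genes rose and 0.702% fell. In the brightest signal bin 0.0765% of all genes rose and 0.0382% fell. The median was 0.046 for the members and -0.017 for all genes, with 22 members above 0, where 47% of all genes were. Scaling by the median of probes well above background shifted every siRNA ratio by -0.30 and left 4 members above 0. After GABARAPL1 and CTSF, ULK1 (0.45), WIPI1 (0.34), CTSD and CTSH (0.29 each) had the highest ratios, and CTSL (-0.52) and BECN1 (-0.33) the lowest. NEU1 had no value because its spot on the MET siRNA array was marked as an outlier. Lysosomal and autophagy members had medians of 0.069 and -0.09, a difference of 0.16, which was 0.0068 from the median over probes and 0.31 with DMSO as control.

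The inhibitor and siRNA pairs share no array, so their signs can be compared. Of 36 members, 21 were higher in both pairs and 12 lower in both, beside 35.2% and 34.4% of all genes with both ratios. Of those 12, 6 had a further probe above 0 with the inhibitor, and with the median over probes 24 members were higher in both and 8 lower in both. Under scaling by the median of probes well above background the counts were 4 and 14, beside 11.3% and 50.3% of all genes. CTSA and UVRAG were higher with PHA665752 and lower with MET siRNA, and TFE3 the reverse. Of the 12 members that rose with the inhibitor, 11 had a siRNA ratio above 0, with a median of 0.24. Among all 1566 genes that rose with the inhibitor and had a siRNA ratio, 86.9% were above 0 and the median was 0.37, so the members' median lay below that of all genes that rose.

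**Figure D4:**
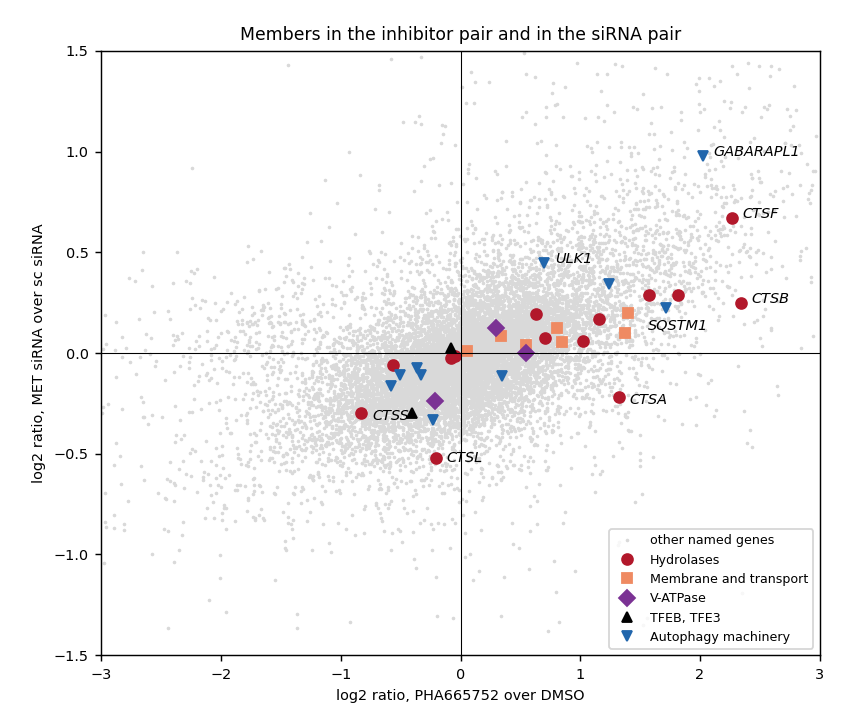
Log2 ratio of PHA665752 over DMSO (horizontal axis) and of MET siRNA over sc siRNA (vertical axis) for members by group (coloured symbols) and other named genes (grey; genes beyond the axes are not drawn), from 1 array per condition. Most members lie in the upper right or lower left of the plot, with GABARAPL1 at 2.02 and 0.98 and CTSF at 2.27 and 0.67 farthest to the upper right, and CTSA below the horizontal line.

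The control arrays also differed at these genes. With sc siRNA, 1 member was more than 2-fold above DMSO, SQSTM1 at 1.04 (under 2-fold in 3 of 9 other settings, 0.94 at the lowest), and none was lower by as much, beside 2.83% and 1.15% of all genes. NEU1 was at 0.99 (7085 with DMSO, 11838 with sc siRNA) and CTSL at 0.92, just under 2-fold. In this pair 28 of 37 members were above 0, where 48.5% of all genes were, and the median was 0.15 beside -0.0099. This pair shares the DMSO array with the inhibitor pair and the sc siRNA array with the siRNA pair. Against the sc siRNA array, PHA665752 put 11 members past 2-fold upward, 10 of them the same as against DMSO. SQSTM1 (0.68) and HEXA (0.62) dropped below the line, ULK1 (1.02) passed it, and CTSL (-1.13) and CTSS (-1.27) were more than 2-fold lower.

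Other genes of the pathway were read from lists that did not include the members and were also chosen with earlier results known. Of 31 further hydrolases, 7 rose with PHA665752 and 1 fell, with a median of 0.74, where 13.1% of all named genes rose and 7.95% fell. FUCA1, an alpha-fucosidase, measured 302 with DMSO and 1024 with PHA665752 (1.97), the cysteine protease CTSO 2303 and 7055 (1.83), and the alpha-glucosidase GAA 6531 and 14541 (1.37). CTSC, a dipeptidyl peptidase, was the hydrolase that fell, at -1.26, and is named after its value was seen. Of 6 genes that sort enzymes to the lysosome, all were above 0 and 2 rose, GNPTAB (1.23) and GNPTG (1.09), which are subunits of the enzyme that makes the mannose 6-phosphate tag. With MET siRNA, 0 of the 108 other pathway genes with a ratio passed 2-fold, where 2.04% of all named genes rose and 0.702% fell.

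In the further lists that follow, the share that rose is to be read against the 13.1% of all named genes that did. Of 14 further lysosomal membrane proteins with a ratio, 1 rose, the acetyltransferase HGSNAT (1.34), and the median was 0.39. None of 11 listed further V-ATPase subunits passed 2-fold, with a median of 0.091 with the inhibitor. With MET siRNA 10 of 11 were below 0 (median -0.14, lowest -0.29), where 47% of all named genes were above 0. The list left out some subunits, which are named after their values were seen. ATP6V1G2 was at 2.27 with the inhibitor and 0.49 with MET siRNA, and ATP6V0E2 at 0.67 and 0.13. ATP6V0D2 was at 0.57 and -0.56, ATP6V0A4 at 0.39 and -0.26, and ATP6V1C2 at -0.50 and -0.13. Of 29 further autophagy genes, 3 rose and 1 fell, with a median of 0.26. The kinase ULK2 had a ratio of 1.55 on low signals of 37.5 and 94.6, the cargo receptor OPTN 1.23, and GABARAP, named after its value was seen, 1.13. ATG16L1, which directs LC3 conjugation, was at -1.25 with the inhibitor (6561 and 2370.1) and -0.61 with the siRNA. Of 18 genes of mTORC1 at the lysosome and of TFEB control, 2 rose with the inhibitor, the GTPase RRAGB (1.40) and MITF (1.22), a transcription factor of the TFEB family. For MITF the siRNA ratio was 0.59. In sc siRNA over DMSO, 2 of 109 other pathway genes passed 2-fold upward, beside 2.83% of all genes, namely the protease LGMN (579 and 977, a log2 ratio of 1.01) and TFEC (49.8 and 85.4, a log2 ratio of 1.03), a TFEB relative.

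**Figure D5:**
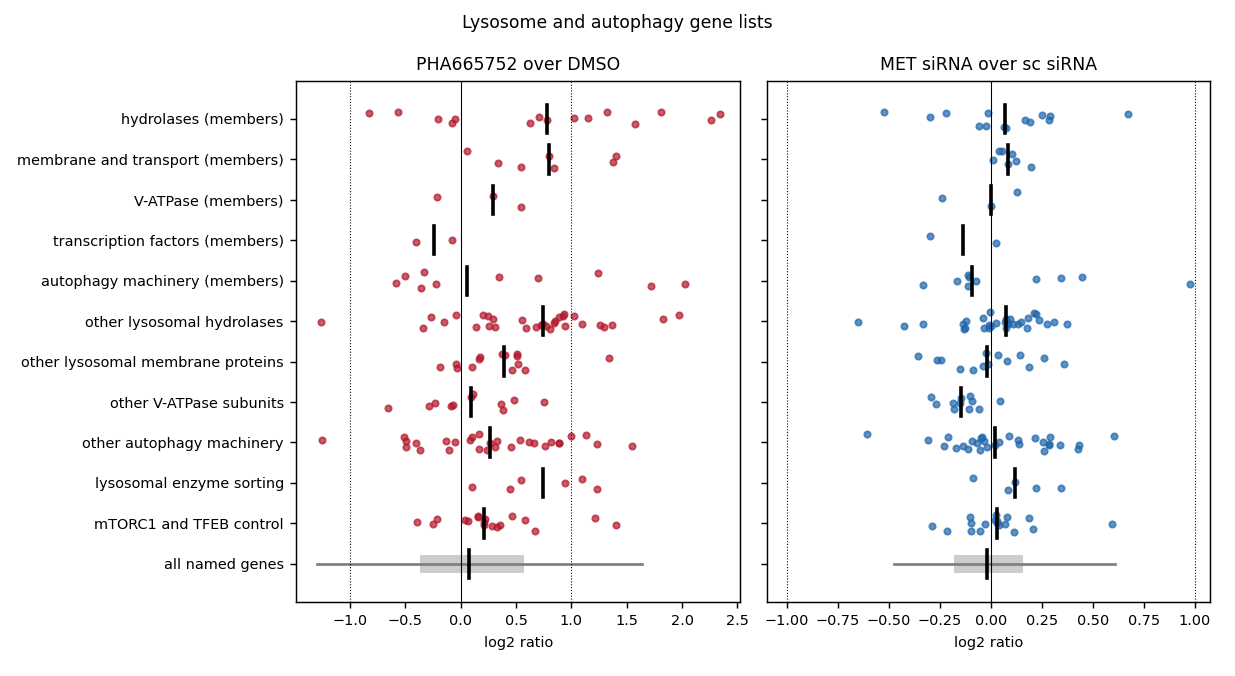
Log2 ratio (horizontal axes) of PHA665752 over DMSO (left) and MET siRNA over sc siRNA (right) for each gene of the member groups and of the further pathway lists (vertical axis); points are genes, black bars list medians, the bottom box spans the 25th to 75th and its line the 5th to 95th percentile of all named genes, and dotted lines mark 2-fold. On the left, the hydrolases of both kinds and the sorting genes have medians between 0.74 and 0.78, above the 0.076 of all genes; on the right every list median lies close to 0.

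Macrophages are rich in lysosomes, and macrophage markers were therefore read on the same arrays. Of 6 markers on the array, all were well above background on every array, at summed signals of 776 with DMSO, 853 with PHA665752 and, in the siRNA pair, 583 with sc siRNA against 628 with MET siRNA. With the inhibitor 2 of 6 were above 0, and CD163 (68.6 with DMSO and 397 with PHA665752) had a log2 ratio of 2.75 and CSF1R (339 and 152) of -0.94. The RNA came from cultures of 1 cell line, Hs746T, so these signals give no share of macrophages. The relation of these marker signals to the lysosomal ratios was not tested.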

How the data were processed

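Total RNA was labelled with Cy3 and read on 1 array per condition. The authors deposited the output of Feature Extraction 11.5.1.1, whose processed signal is a linear intensity with background subtracted and no normalization between arrays. The deposited series matrix repeats this intensity for 33128 of 33128 probes spotted once (tolerance 0.06). Its medians were 91.2 with DMSO, 93.0 with PHA665752, 81.4 (sc siRNA) and 86.7 (MET siRNA); it is linear and uncentred and served as an alternative.

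Control spots were dropped, which left 43118 spots of 34127 probes per array. Those carrying a feature or background outlier mark were not used, 5.58% on the MET siRNA array and 1.69% to 2.21% on the others. Spots of a probe were averaged as log2 values, and the 75th percentile was subtracted. On the MET siRNA array 61.1% of probes were well above background, beside 67.4% to 68.2% on the others, and 0 spots were saturated. Where only 1 array of a pair had a probe well above background the ratio is a bound, and where neither had, none was formed. The number of arrays limits the precision. Names came from RefSeq accessions of GRCh38.p14 (75.5% of probes); the array design uses another build, so no probe coordinates are given. The brightest probe with a value on all 4 arrays stood for its gene where one existed.

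The members were named for this work, and members and lists were chosen with earlier results of these data known. All members, MET, and of every further list up to 3 genes per pair with the largest ratio past 2-fold were named; 5 of the listed genes were not matched. The 2-fold rule was tested on simulated data. Results were recomputed under 9 other settings (scaling, background correction, filters, outlier marks, choice of probe) and, chosen after seeing the data, against the other control array. Software was R 4.3.3 with limma 3.58.1 for normexp and quantile normalization, and Python 3.11.15 with pandas 2.3.3 and numpy 2.4.6 for the rest, plus matplotlib 3.10.9 for plots.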

Additional observations from a re-analysis of the deposited data

How the results depend on the processing

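No paired analysis was possible because each condition had 1 array. With PHA665752, CTSA, CTSB, CTSD, CTSF, CTSH, NPC1, PSAP, SQSTM1 and GABARAPL1 were past 2-fold in all 9 other settings, HEXA and WIPI1 in 8 and CTSK in 5. The 50th percentile shifted all inhibitor ratios by -0.25 and left 9 members higher; CTSS was past 2-fold lower there and under quantile normalization. The members' median with PHA665752 was 0.30 under the 50th percentile, 0.70 under quantile normalization, 0.46 under scaling by the median of probes well above background, 0.63 from the median over probes and 0.20 with the other control array. The lysosomal minus autophagy difference with PHA665752 was 0.55 under normexp, 0.41 from the median over probes and 0.33 with the other control array. With MET siRNA it was 0.0068 from the median over probes and 0.31 with the other control array. The members' median with MET siRNA was -0.25 under scaling by probes well above background, which shifted all genes by -0.30 and left 4 of 36 members above 0, and 0.28 with the other control array. The members past 2-fold with MET siRNA numbered 1 under quantile normalization (GABARAPL1) and 2 with the other control array, DMSO (GABARAPL1 and SQSTM1). SQSTM1 was at 1.26 there, but at 0.22 against sc siRNA, and sc siRNA was itself 1.04 above DMSO. In sc siRNA over DMSO the members past 2-fold numbered 0 under the 50th percentile, quantile normalization and normexp, and 2 (NEU1 and SQSTM1) with series matrix values or with outlier marks ignored. The members' median in that pair was 0.055 under the 50th percentile. Normexp gave fewer genes past 2-fold over the whole array, 6.67% higher and 5.83% lower with PHA665752. Where no cause is given, the cause was not tested.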
